A study of Homo sapiens with 6 samples.

Results

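The genes described here encode 10 enzymes that make serine, asparagine, proline and mitochondrial one-carbon units, or that feed carbon into these routes. They were picked by name from 60671 genes in the expression table, with earlier results of these data known, so their counts below are a description. They are PHGDH, PSAT1 and PSPH of serine synthesis, the serine hydroxymethyltransferases SHMT1 and SHMT2, the mitochondrial folate enzymes MTHFD2 and ALDH1L2, the asparagine synthetase ASNS, the proline enzyme PYCR1 and the mitochondrial PEP carboxykinase PCK2. RNA-Seq was done on U87, an established human glioblastoma cell line, after 48 h with either 100 μM rutaecarpine in 0.1% DMSO (n = 3 libraries) or 0.1% DMSO alone (n = 3 libraries). Rutaecarpine is an indolopyridoquinazoline alkaloid of Evodia fruit and a ligand of the aryl hydrocarbon receptor. The cells were grown in Minimum Essential Medium with fetal bovine serum, and both groups were dosed without serum. Minimum Essential Medium in its usual formulation contains no serine, glycine, asparagine or proline. The labels do not say whether these amino acids were added. The data come from a single cell line, and nothing in the labels states that the libraries of a group came from separate cultures, so the p values measure the spread between these libraries, which may be technical.

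Cells make serine from the glycolytic intermediate 3-phosphoglycerate in the cytosol. Serine is then split to glycine in the cytosol or the mitochondrion, and the carbon released is carried by folate into nucleotides, methionine and NADPH. Many of these genes, with ASNS, are textbook targets of the transcription factor ATF4, which is translated when amino acids are short or proteins misfold in the endoplasmic reticulum.

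Values are TPM, an abundance scaled by transcript length and to a fixed total per library, so levels of different genes can be set side by side. A difference between groups is a log2 fold change of log2(TPM + 1) from limma, with its SE and a p value adjusted by the Benjamini-Hochberg method over all 14377 tested genes (those reaching 1 TPM in 3 or more libraries). A DEG combines an adjusted p no larger than 0.05 with a log2 fold change past 1 or -1. On the log2(TPM + 1) scale the median tested gene stood at 3.56 in control replicate 3 and between 3.81 and 4.00 in the other libraries, so control replicate 3 stood apart, and results that change without it are given with both values. Its correlation across genes with each of the other control libraries was 0.965, against 0.986 between those 2. The median log2 fold change over all tested genes was 0.08. Of 8 U87 and glioma markers, SOX2 and S100B were under 2 TPM in every library. The summed TPM of these markers was 9742 to 10648 in control and 7913 to 8535 in rutaecarpine libraries, and its part in the results below was not tested. Most of that sum was VIM, with a mean of 7498 TPM in control and 4857 TPM in rutaecarpine libraries. NES was also lower on average, while CD44, CHI3L1, GFAP and OLIG2 were higher. The groups were apart for VIM, NES and OLIG2 and overlapped for CD44. For CHI3L1 and GFAP they overlapped only through control replicate 3. Each of 6 markers of other cell types was under 2 TPM in every library.

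All 10 enzymes passed the filter on low values, and 5 of them rose as DEGs, namely ASNS, ALDH1L2, PSAT1, PCK2 and MTHFD2, while 0 fell. Among all tested genes, 2.01% rose as DEGs and 1.5% fell. PSPH and SHMT2 passed the adjusted p with smaller changes, which made 7 of 10 enzymes past the test in the upward direction, where the share of all tested genes was 4.6%, and 0 past it downward, where that share was 4.68%. PHGDH, the entry enzyme of serine synthesis and the most abundant of the 10, did not pass the test, nor did SHMT1 and PYCR1. In 7 enzymes all rutaecarpine libraries lay above all control libraries (19.3% of tested genes) and in 1, SHMT1, all lay below (14% of tested genes). The median log2 fold change of the 10 was 0.82. RNA from fewer cells and less RNA per cell cannot be told apart in these bulk libraries. The count of 5 DEGs became 3 without control replicate 3, which left ASNS, ALDH1L2 and PCK2. It was also 3 without control replicate 1 (ASNS, MTHFD2 and PSAT1) and without rutaecarpine replicate 2 (ASNS, PCK2 and PSAT1). Without rutaecarpine replicate 3 it was 1 (ASNS). The count of 7 past the adjusted p was 3 without rutaecarpine replicate 3, and was 4 when control replicate 1, rutaecarpine replicate 1 or rutaecarpine replicate 2 was left out.

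**Figure D1:**
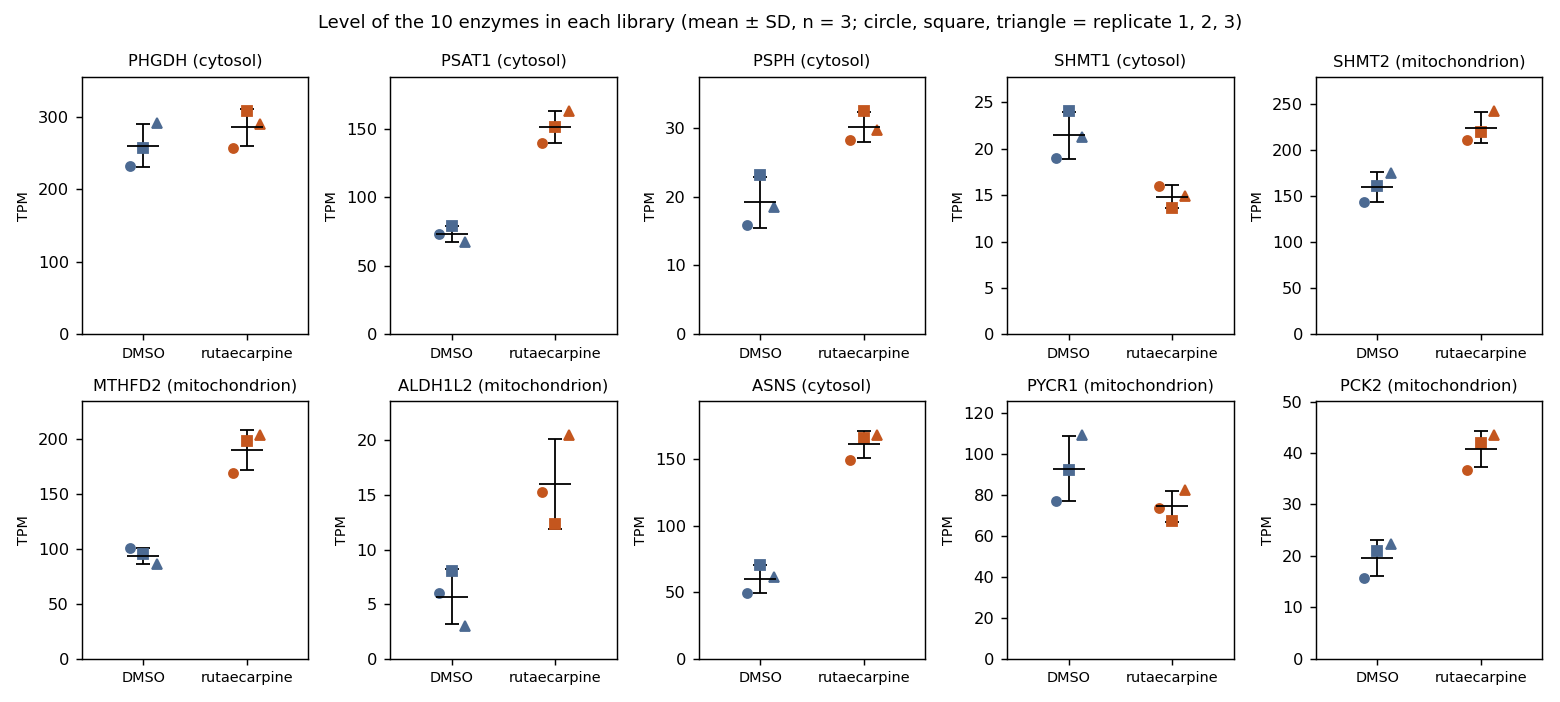
TPM (linear axes from 0) of the 10 enzymes in each library, with points for the DMSO and rutaecarpine libraries and lines for mean ± SD (n = 3). The groups are apart in 8 of the enzymes and overlap in PHGDH and PYCR1.

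In the serine synthesis route, PSAT1 and PSPH rose and PHGDH did not pass the test. Gene positions are those of GENCODE release 29 on GRCh38. PHGDH oxidises 3-phosphoglycerate and opens the route (ENSG00000092621, chromosome 1, 119648411 to 119744226, plus strand). Its TPM was 233, 257 and 291 in control replicates 1 to 3 and 257, 309 and 291 in rutaecarpine replicates 1 to 3. The groups overlapped, and the log2 fold change was 0.13 (SE 0.11, 95% interval -0.13 to 0.40; limma adjusted p = 0.501). PSAT1 transfers an amino group from glutamate in the next step (ENSG00000135069, chromosome 9, 78297143 to 78330093, plus strand). It was at 73.6, 78.8 and 67.3 TPM in control and 139.95, 151 and 163 TPM in rutaecarpine libraries. Every rutaecarpine library was well above the highest control, and the mean rose 2.07-fold, from 73.2 ± 5.78 to 151 ± 11.7 TPM (SD, n = 3). The log2 fold change of PSAT1 was 1.04 (SE 0.10, limma adjusted p = 0.00146). It stood at 0.98, under the fold threshold but past the adjusted p, without control replicate 3 and also without rutaecarpine replicate 3.

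PSPH removes the phosphate and releases serine (ENSG00000146733, chromosome 7, 56011051 to 56051604, minus strand). Its control libraries had 15.9, 23.2 and 18.4 TPM and its rutaecarpine libraries 28.2, 32.4 and 29.6 TPM. The groups did not overlap, and the log2 fold change was 0.64 (SE 0.15, 95% interval 0.27 to 1.00; limma adjusted p = 0.0479). The adjusted p of PSPH lay above 0.05 when control replicate 1 was left out (0.125) and when rutaecarpine replicate 1, 2 or 3 was left out (0.134, 0.163 and 0.165). The ratio of PSAT1 to PHGDH within a library was 0.316, 0.307 and 0.231 in control and 0.544, 0.490 and 0.562 after rutaecarpine. The ratio of PSPH to PHGDH was 0.0739 ± 0.014 in control and 0.106 ± 0.0040 in rutaecarpine libraries (SD, n = 3). Both ratios were higher in every rutaecarpine library than in any control library. For any such comparison of a single value, an exact permutation test of 3 against 3 libraries cannot give a two-sided p below 0.1.

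Serine hydroxymethyltransferases take a carbon from serine and leave glycine, SHMT1 in the cytosol and SHMT2 in the mitochondrion. SHMT2 rose (ENSG00000182199, chromosome 12, 57229327 to 57234935, plus strand). It had 143, 160.35 and 175 TPM in control and 211, 219 and 242 TPM in rutaecarpine libraries, with no overlap. The mean was 1.40-fold higher, and the log2 fold change was 0.49 (SE 0.10, 95% interval 0.25 to 0.73; limma adjusted p = 0.0280). Leaving out any 1 library other than control replicate 3 put the adjusted p of SHMT2 between 0.0781 and 0.128, whereas without control replicate 3 it was 0.00474.

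SHMT1 lay in the other direction, without passing the test (ENSG00000176974, chromosome 17, 18327860 to 18363563, minus strand). Its values were 19, 24.1 and 21.3 TPM in control and 16.0, 13.6 and 14.96 TPM in rutaecarpine libraries. All rutaecarpine libraries were below all control libraries, with a log2 fold change of -0.50 (SE 0.14, 95% interval -0.82 to -0.18; limma adjusted p = 0.0699). Without control replicate 3 the adjusted p was 0.0419. The ratio of SHMT2 to SHMT1 within a library was 7.53, 6.65 and 8.24 in control and 13.2, 16.1 and 16.2 after rutaecarpine. The mitochondrial form went from 7.47 ± 0.80 to 15.2 ± 1.73 transcripts for each cytosolic one (SD, n = 3). SHMT1 overlaps SMCR8, a gene on the opposite strand with a mean of 7.71 TPM in control and 11.2 TPM in rutaecarpine libraries, and the strandedness of the libraries is not given in the sources used here.

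MTHFD2 oxidises the one-carbon unit on folate inside the mitochondrion and is best known from embryonic and cancer cells (ENSG00000065911, chromosome 2, 74198562 to 74217565, plus strand). It was at 101, 95.0 and 86.2 TPM in control and 169.6, 198 and 204 TPM in rutaecarpine libraries. The groups were far apart, and the mean rose from 94.0 ± 7.27 to 190.5 ± 18.3 TPM (SD, n = 3). The log2 fold change was 1.01 (SE 0.10, limma adjusted p = 0.00189), which is only just past the fold threshold. It was 0.95 without control replicate 3, 0.98 without rutaecarpine replicate 2 and 0.96 without rutaecarpine replicate 3, each past the adjusted p.

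ALDH1L2 burns 10-formyl-tetrahydrofolate to carbon dioxide in the mitochondrion and yields NADPH (ENSG00000136010, chromosome 12, 105019784 to 105084577, minus strand). It was the least abundant of the 10 enzymes in control libraries, with 6, 8.01 and 3.03 TPM, and reached 15.3, 12.3 and 20.5 TPM after rutaecarpine. Although the groups did not overlap, each spread more widely for its level than those of the other 9 enzymes. The log2 fold change was 1.40 (SE 0.32, 95% interval 0.63 to 2.16; limma adjusted p = 0.0415). Without control replicate 3, the lowest library, the log2 fold change was 1.07 and ALDH1L2 was still a DEG. The adjusted p lay above 0.05 without control replicate 1 (0.0949) and without rutaecarpine replicate 1, 2 or 3 (0.138, 0.0886 and 0.165).

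MTHFD1, the cytosolic enzyme that interconverts folate-bound one-carbon units, fell by 0.45 on the log2 scale (limma adjusted p = 0.0381), from 70.8 ± 4.59 to 51.7 ± 4.39 TPM (SD, n = 3). Its adjusted p exceeded 0.05 in 5 of 6 fits that left out 1 library, with a highest value of 0.144, and the exception was the fit without control replicate 3. The ratio of MTHFD2 to MTHFD1 was 1.44, 1.43 and 1.14 in control and 3.04, 4.20 and 3.91 in rutaecarpine libraries, with no overlap. That separation follows from the single genes, whose groups were already apart in opposite directions. MTHFD2L, the mitochondrial paralog of MTHFD2, had 16.1 ± 2.99 TPM in control and 35.4 ± 1.55 TPM in rutaecarpine libraries and rose by 1.10 on the log2 scale (SE 0.15, limma adjusted p = 0.00532). The ratio of MTHFD2 to MTHFD2L was 5.90 ± 0.64 in control and 5.39 ± 0.62 in rutaecarpine libraries, and its groups overlapped. ALDH1L1, the cytosolic paralog of ALDH1L2, had 1.06 ± 0.35 TPM in control and 0.603 ± 0.20 TPM in rutaecarpine libraries, too low to be tested.

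**Figure D2:**
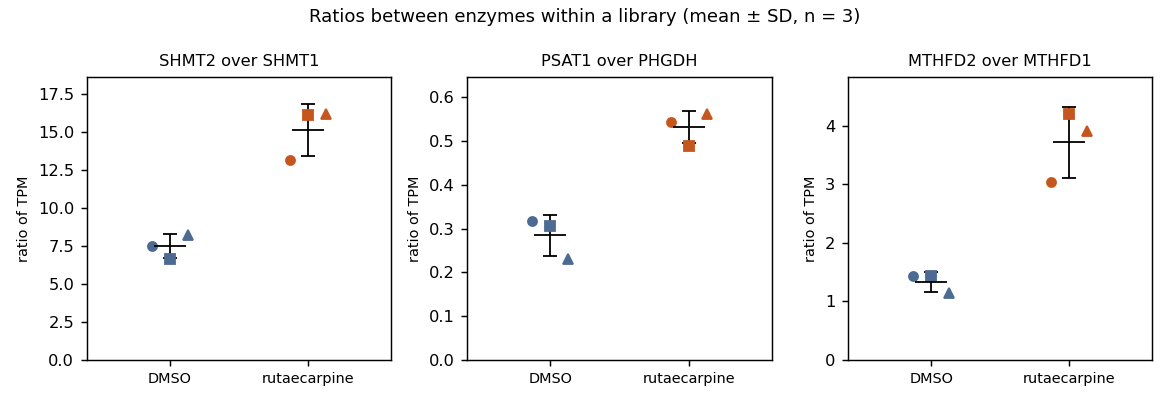
Ratios of TPM between enzymes within each library (linear axes from 0; points are libraries, lines are mean ± SD, n = 3). SHMT2 over SHMT1, PSAT1 over PHGDH and MTHFD2 over MTHFD1 are higher in every rutaecarpine library than in any control library. For SHMT2 over SHMT1 and MTHFD2 over MTHFD1 this follows from the single genes, whose groups are already apart in opposite directions.

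ASNS, which makes asparagine from aspartate and glutamine, had the largest log2 fold change of the 10 (ENSG00000070669, chromosome 7, 97852118 to 97872542, minus strand). Its TPM was 49.3, 70.1 and 61.2 in control and 149.5, 166 and 168 in rutaecarpine libraries. Each treated library was far above the highest control library. The mean rose 2.68-fold, from 60.2 ± 10.4 to 161 ± 10.2 TPM (SD, n = 3), with a log2 fold change of 1.42 (SE 0.14, 95% interval 1.10 to 1.74; limma adjusted p = 0.00151). ASNS was a DEG in all 6 fits that left out 1 library, with log2 fold changes between 1.29 and 1.54. The overlapping same-strand transcript AC079781.5 had a mean of 11.99 TPM in control and 15.1 TPM in rutaecarpine libraries, so the division of shared reads between both is uncertain.

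Promoter windows from 250 bases before to 50 bases after the start site, taken from RefSeq (GRCh38.p14), were at hand for 6 of the 10 enzymes (7 windows, of which 2 overlapping ones belong to ASNS), and not for PSPH, SHMT2, ALDH1L2 and PYCR1. They were searched on both strands for TGATGNAA, the C/EBP-ATF composite element through which ATF4 is known to act, for GCGTG, the core bound by the aryl hydrocarbon receptor, and for the E-box CACGTG, bound by MYC among others. The shares of all 35116 windows with a match were 3.62%, 36.5% and 7.26%. Of the 6 enzymes, 1 (ASNS) held the composite element, 3 (ASNS, MTHFD2 and PSAT1) held GCGTG and 0 held the E-box. The stretches below are shown because ASNS was the enzyme with the largest change and MTHFD2 a DEG with a match before its start, and capitals mark the motif or its complement.
ASNS, composite element 68 bases before the start, chr7:97872458-97872487, minus strand: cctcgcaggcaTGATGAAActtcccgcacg
ASNS, GCGTG read on the opposite strand 53 bases before the start, chr7:97872443-97872472, minus strand: gaaacttcccgCACGCgttacaggagccag
MTHFD2, GCGTG 23 bases before the start, chr2:74198581-74198610, plus strand: gcagtataaccGCGTGgcccgcgcgcgcgc
The first and second stretches lie in the same ASNS window and share bases. A further GCGTG, not shown, lies in the other ASNS window, 133 bases before the start of that window. These distances are from the RefSeq starts. By the GENCODE positions given above, the stretches shown lie inside their genes, after the GENCODE starts. A match describes letters only and says nothing of binding, which was not measured.

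PYCR1 completes proline synthesis in the mitochondrion (ENSG00000183010, chromosome 17, 81932384 to 81942412, minus strand). It had 77.3, 92.3 and 109 TPM in control and 73.9, 67.4 and 82.4 TPM in rutaecarpine libraries. The groups overlapped, and the log2 fold change was -0.31 (SE 0.14, 95% interval -0.65 to 0.03; limma adjusted p = 0.251). PYCR3, its cytosolic paralog, was at 10.8 ± 2.19 TPM in control and 9.33 ± 0.75 TPM in rutaecarpine libraries (SD, n = 3; limma adjusted p = 0.562).

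PCK2 turns mitochondrial oxaloacetate into phosphoenolpyruvate, from which cells without much glucose can build serine (ENSG00000100889, chromosome 14, 24094053 to 24110598, plus strand). Its TPM was 15.7, 20.9 and 22.3 in control and 36.8, 42.0 and 43.5 in rutaecarpine libraries, with a wide gap between the groups. The mean went from 19.7 ± 3.47 to 40.8 ± 3.54 TPM (SD, n = 3), and the log2 fold change was 1.03 (SE 0.15, 95% interval 0.66 to 1.39; limma adjusted p = 0.00809). Without control replicate 1 the log2 fold change of PCK2 was 0.88, and without rutaecarpine replicate 3 it was 0.98 with an adjusted p of 0.0525. PCK1, the cytosolic form known from liver and kidney, was at or below 0.02 TPM in every library and was not tested.

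**Figure D3:**
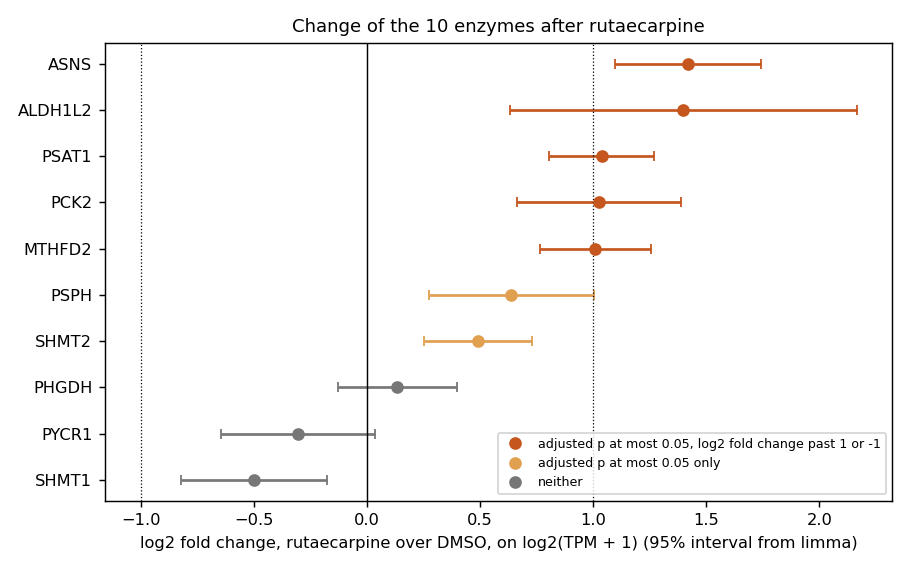
Log2 fold change on log2(TPM + 1) of each enzyme, rutaecarpine over DMSO, with its 95% interval from limma (3 against 3 libraries). The 5 DEGs lie past 1, PSPH and SHMT2 between 0.49 and 0.64, and SHMT1 and PYCR1 below 0.

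Ordered by mean level, the 10 enzymes stood differently in the 2 groups. In control libraries PHGDH led, followed by SHMT2, and the libraries of MTHFD2, PYCR1, PSAT1 and ASNS then overlapped from each to the next in that order. SHMT1, PCK2 and PSPH came next, overlapping likewise, and ALDH1L2 was lowest. After rutaecarpine PHGDH, SHMT2 and MTHFD2 were each apart from the next, ASNS and PSAT1 overlapped, and PYCR1, PCK2 and PSPH followed in turn, each apart from its neighbours, with ALDH1L2 and SHMT1 overlapping at the bottom. SHMT1 thus went from the seventh to the last place and PYCR1 from the fourth to the sixth.

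The summed level of the 10 enzymes was 733, 830 and 856 TPM in control and 1097, 1211 and 1259 TPM in rutaecarpine libraries. The sum was higher in every treated library. PHGDH made up 32.3 ± 1.59% of the sum in control and 24.0 ± 1.30% in rutaecarpine libraries (SD, n = 3), a lower share in every treated library. Of the 5 mitochondrial enzymes (SHMT2, MTHFD2, ALDH1L2, PYCR1 and PCK2), 3 were DEGs and 4 passed the adjusted p upward, with a median log2 fold change of 1.01. Of the 5 in the cytosol, 2 were DEGs and 3 passed, with a median of 0.64, and the difference between both compartments was not tested.

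Among all 14377 tested genes, the rises of the 5 DEGs were large without being the largest. Counting the gene itself, 150 genes rose at least as much as ASNS on the log2 scale and 161 as much as ALDH1L2. The corresponding counts were 331 for PSAT1, 342 for PCK2 and 360 for MTHFD2. Further down were PSPH with 1003 and SHMT2 with 1753.

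Other genes of the same pathways were set beside the 10 enzymes, and the difference between both sets was not tested. Lists of neighbouring enzymes, of the tRNA synthetases for the product amino acids and methionine and of upstream regulators held 79 genes, of which 65 were tested. Of these, 5 rose and 1 fell as DEGs, 12 passed the adjusted p upward and 5 downward, and the median log2 fold change was 0.14. Among all tested genes, 2.01% rose and 1.5% fell as DEGs, and 4.6% passed the adjusted p upward and 4.68% downward. The same shares stand beside the counts of the single lists below. In each of the 6 fits that left out 1 library, all 6 DEGs of the lists were still DEGs. None of the 7 tested genes of serine and glycine metabolism (1 at an unadjusted p under 0.05), the 8 of proline and arginine metabolism (1 likewise) and the 2 of phosphoenolpyruvate, pyruvate and malic enzymes (0 likewise) passed limma's adjusted p, and no other method was run. Their median log2 fold changes were 0.11, -0.10 and 0.10.

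Of 14 tested genes of folate metabolism outside the 10 enzymes, 1 rose and 1 fell as DEGs. The one that rose was MTHFD2L. The one that fell was TYMS, thymidylate synthase, which spends folate-bound carbon on DNA precursors and is known to be low outside S phase. Its TPM was 102, 106 and 98.4 in control and 33.1, 34.6 and 42.5 in rutaecarpine libraries, with a log2 fold change of -1.46 (SE 0.11, limma adjusted p = 0.000756). MTHFD2 and TYMS were at near-equal levels in control libraries, with a ratio of 0.922 ± 0.06, and the ratio was 5.21 ± 0.47 after rutaecarpine (SD, n = 3). SLC19A1, the reduced folate carrier, fell by 0.92 on the log2 scale (limma adjusted p = 0.0127). Its adjusted p was above 0.05, at most 0.0733, when control replicate 2, rutaecarpine replicate 2 or rutaecarpine replicate 3 was left out.

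Of 7 tested genes of the methionine cycle and transsulfuration, 2 rose as DEGs, and both belong to the transsulfuration route, in which serine and homocysteine give cysteine. CTH, its second enzyme, was at 12.2, 17.4 and 12.97 TPM in control and 46.8, 44.3 and 60.2 TPM in rutaecarpine libraries. All treated libraries were far above the controls, with a log2 fold change of 1.76 (SE 0.18, limma adjusted p = 0.00174), larger than that of any of the 10 enzymes. CBS, which condenses serine with homocysteine, rose by 1.28 on the log2 scale, with 5.34 ± 1.14 TPM in control and 14.2 ± 0.83 TPM in rutaecarpine libraries (SD, n = 3; SE 0.17, limma adjusted p = 0.00551). Of 8 tested genes of asparagine, aspartate and glutamate metabolism, 1 passed the adjusted p in each direction. GOT1, the cytosolic aspartate aminotransferase, rose by 0.76 on the log2 scale from 39.6 ± 4.38 to 67.7 ± 3.50 TPM (limma adjusted p = 0.00651). ASRGL1, an asparaginase, fell by 0.71 (limma adjusted p = 0.0442) from 1.17 to 0.33 TPM, a level near the filter, and did not pass in any fit that left out 1 library. It reached 1 TPM in the control libraries only, so it was tested only because of the group in which it was higher.

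The enzymes that load the product amino acids on tRNA were measured as users of these products. Of 9 tested, 4 passed the adjusted p upward and 0 downward, and the median log2 fold change was 0.33. MARS1 for methionine had 129 ± 8.30 TPM in control and 251 ± 18.8 TPM in rutaecarpine libraries, with a log2 fold change of 0.95 (limma adjusted p = 0.00149). GARS1 for glycine rose by 0.89 (limma adjusted p = 0.00232), NARS1 for asparagine by 0.70 (limma adjusted p = 0.0399) and SARS1 for serine by 0.57 (limma adjusted p = 0.00616). NARS1 passed in 1 of 6 fits that left out 1 library, the one without control replicate 3, and its highest adjusted p was 0.16.

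**Figure D4:**
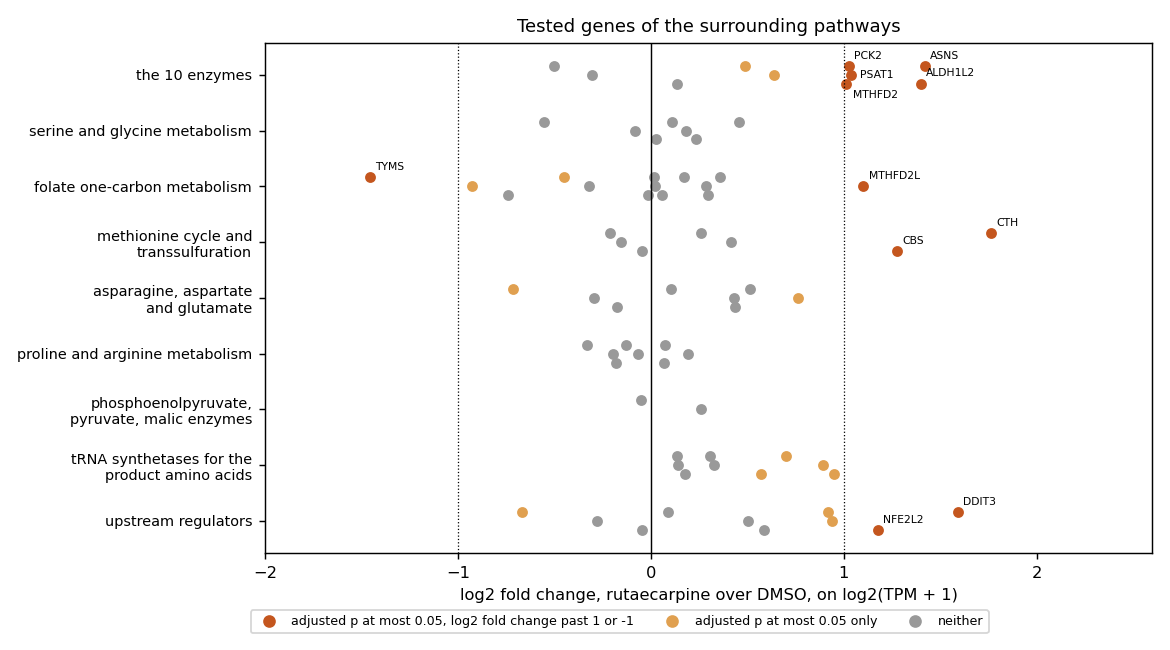
Log2 fold change on log2(TPM + 1), rutaecarpine over DMSO, of every tested gene of the 10 enzymes and the surrounding lists, 1 point a gene, coloured by the limma call. Of the 65 genes outside the 10 enzymes, MTHFD2L, CTH, CBS, DDIT3 and NFE2L2 lie past 1 as DEGs and TYMS past -1.

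Of 10 regulators known to act on these genes, 4 passed the adjusted p upward and 1 downward. ATF4, the amino acid response factor itself, had 596, 659 and 641 TPM in control and 1139, 1130 and 1319 TPM in rutaecarpine libraries. Its log2 fold change was 0.92 (SE 0.09, limma adjusted p = 0.00155), and the groups were well apart. CEBPB, a partner of ATF4 on composite elements, rose by 0.94 (SE 0.11, limma adjusted p = 0.00393) from 109.9 ± 13.2 to 211 ± 20.2 TPM (SD, n = 3).

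DDIT3, which encodes the stress factor CHOP, had 83.9, 102 and 140 TPM in control and 259, 358 and 361 TPM in rutaecarpine libraries. Its log2 fold change was 1.59 (SE 0.21, limma adjusted p = 0.00526). NFE2L2, which encodes the oxidative stress factor NRF2, rose by 1.18 on the log2 scale, with 47.4 ± 6.43 TPM in control and 108 ± 12.1 TPM in rutaecarpine libraries (SD, n = 3; SE 0.13, limma adjusted p = 0.00282). Both were DEGs in all 6 fits that left out 1 library. MYC, an activator of serine and nucleotide synthesis genes in many tumours, fell by 0.67 (SE 0.10, limma adjusted p = 0.00785) from 56.8 ± 1.30 to 35.5 ± 3.17 TPM (SD, n = 3).

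ATF5, a relative of ATF4, had a log2 fold change of 0.50 (limma adjusted p = 0.0650). The kinases that phosphorylate eIF2α, the step before ATF4 translation, did not pass the test. Their log2 fold changes were -0.05 for EIF2AK1 (limma adjusted p = 0.880), 0.09 for EIF2AK2 (0.868), 0.59 for EIF2AK3 (0.277) and -0.28 for EIF2AK4 (0.2005). These are mRNA levels only, and neither ATF4 protein nor kinase activity was measured.

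The median profile of the 10 enzymes over the 6 libraries, centred on the control mean, was -0.16, 0.10 and 0.02 in control and 0.70, 0.89 and 0.86 in rutaecarpine libraries on the log2(TPM + 1) scale. By Euclidean distance, the nearest of the other tested genes included L3MBTL2-AS1 (0.102), CCDC163 (0.187), KRT34 (0.1998) and YARS1 (0.208). YARS1, the tyrosine tRNA synthetase, had 115 ± 7.39 TPM in control and 207 ± 10.95 TPM in rutaecarpine libraries (SD, n = 3). Since the profile itself contains the difference between groups, these distances are a description over 6 libraries.

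Fits with other settings kept the direction of every enzyme, while the calls near a threshold shifted. With the libraries centred on their medians, the log2 fold changes were 0.92 for MTHFD2, 0.93 for PCK2 and 0.95 for PSAT1, each past the adjusted p but under 1, and ASNS and ALDH1L2 were the 2 DEGs left. PSPH and SHMT2 then had adjusted p values of 0.126 and 0.251.

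**Figure D5:**
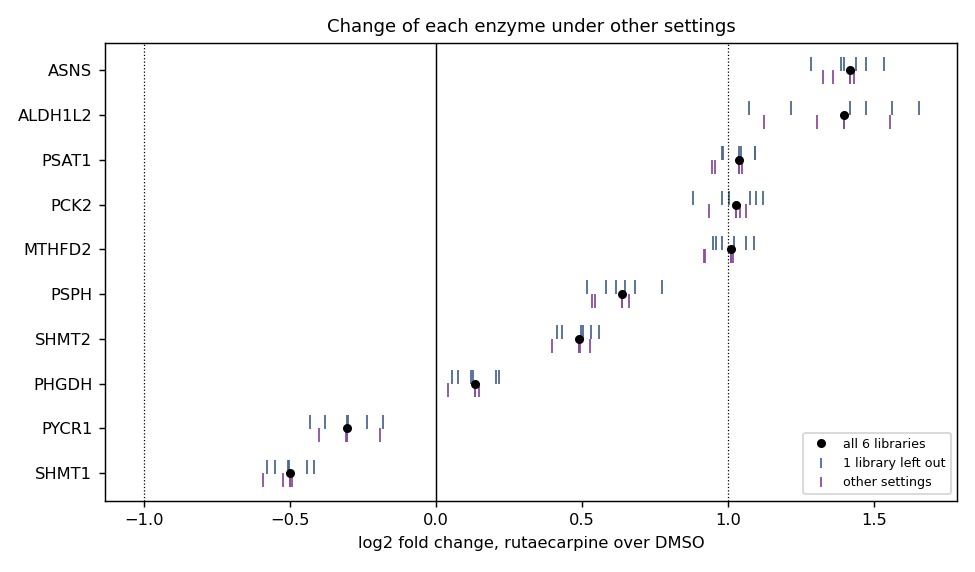
Log2 fold change on log2(TPM + 1 unless the setting says otherwise) of each of the 10 enzymes under every alternative setting, 1 point a setting, with the reported value marked. No enzyme changes sign, and PSAT1, MTHFD2 and PCK2 straddle 1.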

How the data were processed

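U87 cells given 100 μM rutaecarpine (n = 3 libraries) were compared by RNA-Seq with cells given 0.1% DMSO (n = 3 libraries), both for 48 h. The values the authors deposited are TPM, quantified with RSEM per the labels, which also name the build GRCh38.p13, DESeq2 and edgeR. The aligner, the annotation release and the versions are not given in the sources used here. TPM keep no read numbers, so depth is unknown and no counting error or count test is given. All 6 columns were matched to samples by name, and 0 were left unmatched. The groups were compared with limma 3.58.1 in R 4.3.3 on log2(TPM + 1) with a mean-variance trend, two-sided, for the 14377 of 60671 genes that reached 1 TPM in 3 or more libraries. Benjamini-Hochberg adjustment covered all tested genes. DEGs had to have an adjusted p no larger than 0.05 together with a log2 fold change past 1 or -1, after the study's methods. Fold changes on this scale understate those of low genes. The fit was also run on simulated data, whose changes were larger than that of any enzyme described here. That run therefore gives no assurance for calls near the thresholds. Python 3.11.15 with matplotlib 3.10.9, pandas 2.3.3 and numpy 2.4.6 was used for tables and figures.

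The enzymes and all gene lists were chosen with earlier results of these data known. The genes named are the 10 enzymes, the DEGs of each list, the upstream regulators, the paralogs of the enzymes and the 5 genes nearest to the median profile, except a few that are not reported here. Other list genes (SLC19A1, GOT1, ASRGL1, the tRNA synthetases) were named after their values were seen. Gene positions, from GENCODE release 29 on GRCh38, gave overlaps between genes. Of 17 pseudogene copies of the enzymes found by name, 14 were at 0 in every library and the highest value was 0.12 TPM. Alternatives were a pseudocount of 0.1, no filter, a filter of at least 1 TPM in every library, median centring, no trend, library weights, a replicate block, a test against a 1.2-fold change, an adjusted p of at most 0.001 and each library left out in turn.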

Additional observations from a re-analysis of the deposited data

How the results depend on the processing

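No fold change of the 10 enzymes changed direction under any alternative. The 5 DEGs became 0 at an adjusted p of at most 0.001 in limma (8 of the 10 had an unadjusted p under 0.05, and no other method was run), 2 with libraries centred on their medians and 3 with library weights, and ranged from 1 to 5 over the fits lacking 1 library. The 7 enzymes with an adjusted p of at most 0.05 became 0 at 0.001, and 4 with no filter on low TPM, with no mean-variance trend and when tested against a 1.2-fold change. This count ranged from 3 to 8 over the fits lacking 1 library, and was 8 with library weights or without control replicate 3, where SHMT1 also passed downward. The 6 DEGs among the pathway genes became 1, TYMS, at 0.001 and ranged from 6 to 8 over the fits lacking 1 library. The 0.001 cutoff was applied to the same p values, and centring lowered every log2 fold change by the same amount. The cause of the other shifts was not tested, except that fits without a library have fewer samples. With the replicate number as a block, 4 enzymes had an adjusted p of at most 0.05 and 4 were DEGs, ALDH1L2 being the one lost (adjusted p = 0.148). The numbers are not shown to pair the samples, since the deviations of libraries numbered 1, 2 and 3 correlated at 0.116, -0.266 and -0.215 and no library correlated best with its own number. Depth is unknown from TPM, so precision at low levels, as for ALDH1L2, could not be judged.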

Other observations

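The tRNA synthetases as a whole, a family looked at after the values above were seen, differed in count between the cytosolic and the mitochondrial enzymes as told by their symbols. Of 20 cytosolic synthetases, 10 passed limma's adjusted p upward and 0 downward (13 at an unadjusted p under 0.05), with a median log2 fold change of 0.47. Among these 13 was FARSB, which was lower, with a log2 fold change of -0.36 (limma adjusted p = 0.180). Of 17 mitochondrial synthetases, 0 passed in either direction (2 at an unadjusted p under 0.05), with a median of 0.05. Among all tested genes, 4.6% passed upward and the median was 0.08. The difference between both families was not tested. WARS1, for tryptophan, was the 1 DEG and rose from 136 ± 12.03 to 318 ± 18.7 TPM (SD, n = 3), a log2 fold change of 1.22 (limma adjusted p = 0.000663). QARS1 and KARS1, for glutamine and lysine, had log2 fold changes of 0.02 and 0.01 (limma adjusted p = 0.927 and 0.932). The symbols with no number 2 include GARS1 and KARS1, which serve both compartments.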
